A study of Mus musculus with 10 samples.

Results

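The 9 genes described here encode enzymes that carry farnesyl diphosphate through squalene and lanosterol towards cholesterol: Fdft1, Sqle, Lss, Cyp51, Sc4mol (now named Msmo1), Nsdhl, Hsd17b7, Ebp and Dhcr7. They were chosen by name, as the rows with these symbols in the gene count files of 10 mouse liver RNA-seq libraries. All 9 were among the 23420 genes in the files, and all 9 passed the filter on low counts, which left 12796 genes. The livers came from male C57BL/6 mice aged 4 months. The starved group (n = 5) had water but no food for 48 hours, and the fed group (n = 5) ate standard chow over the same time. The labels speak of 5 pairs of mice without saying what makes a pair. Each library stands for 1 mouse, so the p-values below cover the spread between mice. Whole liver was sampled, and in such bulk tissue fewer cells of a type and less RNA per cell cannot be told apart. The series is about a histone modification, and the mice carried no stated allele or other treatment.

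Cholesterol synthesis begins with the mevalonate arm, which builds farnesyl diphosphate from acetyl-CoA. The committed sterol arm then joins farnesyl units to squalene, closes the rings to lanosterol, removes 3 methyl groups and shifts or reduces double bonds until cholesterol is left. In liver, most genes of both arms are known targets of the SREBP transcription factors, membrane-bound proteins that Scap carries to the Golgi for cleavage when sterols are low and that Insig proteins hold back in the endoplasmic reticulum when sterols are high.

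Transcripts of 8 of the 9 enzymes fell in starved livers and none rose. Calls rest on edgeR's quasi-likelihood test of all 12796 genes, with an adjusted p (Benjamini-Hochberg) under 0.05, and fold changes are log2 values of starved over fed. Over all tested genes, 20.0% were called lower and 18.6% higher by the same rule. All 5 starved libraries lay below all 5 fed libraries for 8 of the 9 enzymes, against 16.7% of all tested genes. The median log2 fold change of the 9 enzymes was -2.81, with a range of -3.73 (Sqle) to -0.37 (Hsd17b7), against 0.00346 for all tested genes. Fdft1, Sqle, Cyp51, Sc4mol and Nsdhl were called with a log2 fold change under -2, a size reached by 1.62% of all tested genes. Summed over the 9 enzymes, counts per 1000000 assigned reads (CPM, with TMM scaling, a trimmed mean of the log ratios between libraries) averaged 484 ± 71.2 in starved and 1746 ± 253 in fed livers (SD, n = 5 each), so the starved sum was 27.7% of the fed one. By the level left, the 9 enzymes divided into a group of 5 that kept between 7.56% and 14.2% of their fed mean, a pair at 28.6% (Lss) and 30.4% (Dhcr7), and a pair at 75.8% (Ebp) and 77.3% (Hsd17b7, not called). The place of Lss in this division depends on starved libraries 2 and 4. Without them its log2 fold change was -2.28, nearer to Fdft1 and Cyp51 (both -2.61) than to Dhcr7 (-1.69).

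**Figure D1:**
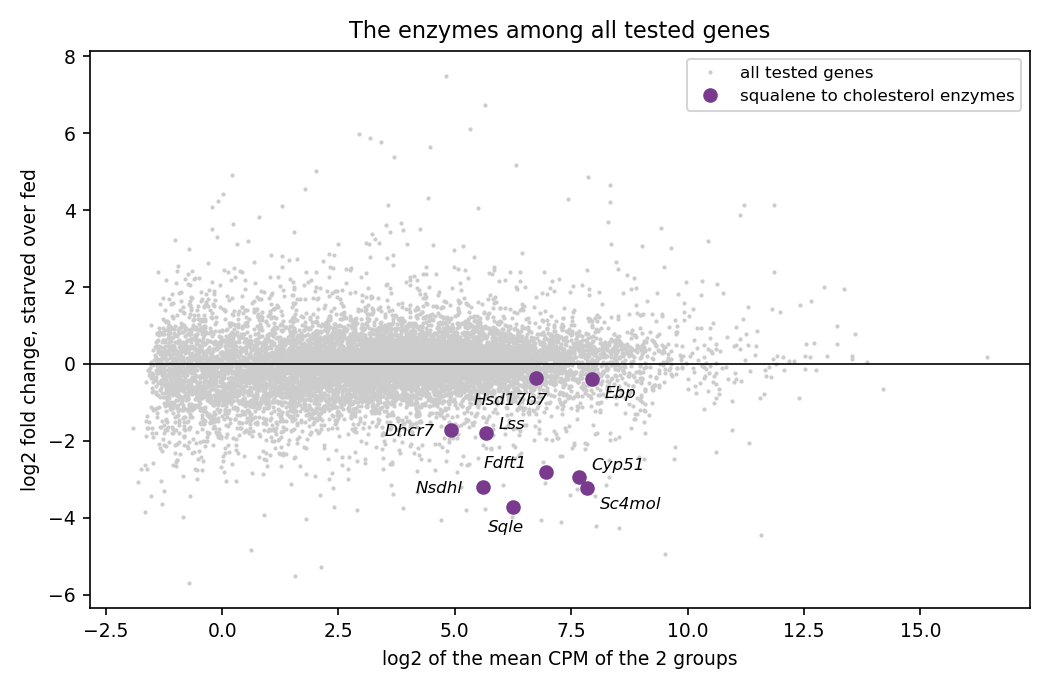
The log2 fold change of starved over fed livers (vertical axis) against the log2 of the mean CPM of the 2 groups (horizontal axis), with all 12796 tested genes in grey and the 9 enzymes in purple. All 9 enzymes lie below 0, with Sqle at -3.73 the lowest and Hsd17b7 at -0.37 the nearest to 0.

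The libraries held 18.2 to 28.1 M gene-assigned reads (M, 1000000) in the starved group and 23.0 to 29.9 M in the fed group, and an enzyme had from 64 to 14241 reads in a library. Starved 2 and 4 differed most from the rest of their group: the root mean square log2 difference over genes was 0.508 to 0.839 in pairs that held either of them, 0.253 to 0.367 among starved 1, 3 and 5, and 0.258 to 0.347 among fed libraries. Reads that aligned to several places made up 38.6% and 40.7% of the tallied reads in starved 2 and 4, against 43.4% to 48.4% in the other starved libraries and 46.4% to 48.1% in the fed ones. The part of this difference in the results was not tested, and values without these 2 libraries stand beside the calls that they alter.

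In coordinates of mouse build GRCm38 (GENCODE M21), Fdft1 lies on chr14:63145150-63179578 (minus strand), Sqle on chr15:59315077-59331192 (plus) and Lss on chr10:76531588-76557138 (plus). Cyp51 lies on chr5:4081145-4104746 (minus), Sc4mol on chr8:64718139-64733792 (minus) and Nsdhl on chrX:72918557-72958514 (plus). Hsd17b7 lies on chr1:169949535-169969241 (minus), Ebp on chrX:8185329-8193512 (minus) and Dhcr7 on chr7:143823145-143848410 (plus). The 9 enzymes therefore sit on 8 chromosomes, with Nsdhl and Ebp on the X chromosome.

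Fdft1, squalene synthase, catalyses the step that commits farnesyl diphosphate to sterols, and Sqle, squalene epoxidase, adds the oxygen needed for ring closure. Fdft1 was at 38.7, 30.9, 35.6, 18.8 and 30.7 CPM in starved livers 1 to 5, against 216, 237, 266, 199.7 and 167 CPM in fed livers 1 to 5. Every starved library lay far below every fed one, with starved 4 the lowest. Fdft1 averaged 30.9 ± 7.57 CPM in starved and 217 ± 37.2 CPM in fed livers, a log2 fold change of -2.81 ± 0.20 (SE; 95% interval -3.24 to -2.38; edgeR adjusted p = 7.97e-06). Sqle was at 11.8, 6.52, 10.9, 6.83 and 17.6 CPM in starved livers, against 108, 174, 182, 135 and 111 CPM in fed livers. The groups did not overlap here either, and starved 2 and 4 were the lowest of their group. Sqle had the lowest fold change of the 9 enzymes: 10.7 ± 4.52 CPM in starved and 142 ± 34.5 CPM in fed livers, a log2 fold change of -3.73 ± 0.29 (95% interval -4.36 to -3.10; edgeR adjusted p = 1.27e-05), which put it at rank 22 from the lowest among the 12796 tested genes. The value of Fdft1 is uncertain in 2 ways. Of its exonic bases, 18.3% (774 bp) overlap Ctsb on the opposite strand, which itself fell (465 ± 83.8 CPM in starved, 737 ± 73.8 CPM in fed livers, log2 fold change -0.66 ± 0.14, edgeR adjusted p = 0.00423), and 54.7% of its longest transcript matched transcripts of 2 other genes at 95% identity or more, the longest being the processed pseudogene Gm6781.

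Lss, lanosterol synthase, folds squalene epoxide into the ring system of lanosterol, and Cyp51, the lanosterol demethylase of the cytochrome P450 family, removes the methyl group at carbon 14. Lss was at 17.8, 40.0, 15.5, 24.7 and 14.7 CPM in starved livers, against 78.8, 81.0, 95.8, 77.1 and 61.2 CPM in fed livers. The groups did not overlap, but here starved 2 and 4 were the highest of their group, where they were the lowest for Sqle. Lss fell by 1.80 on the log2 scale (SE 0.26; 95% interval -2.37 to -1.24; edgeR adjusted p = 0.000424), with means of 22.6 ± 10.5 CPM in starved and 78.8 ± 12.3 CPM in fed livers. Its log2 fold change was -2.28 ± 0.14 without starved 2 and 4, a larger fall, as for Hsd17b7 (-0.61). The falls of the other enzymes were smaller without these 2 libraries. They were -2.61 for Fdft1, -3.39 for Sqle, -2.61 for Cyp51, -3.15 for Sc4mol, -2.76 for Nsdhl, -0.31 for Ebp and -1.69 for Dhcr7. Cyp51 was at 52.7, 32.9, 47.8, 27.5 and 73.7 CPM in starved livers, against 346, 419, 428, 324 and 276 CPM in fed livers. Starved 2 and 4 were again the lowest and starved 5 the highest of the starved group, all of them far under the lowest fed library. Cyp51 averaged 46.9 ± 18.2 CPM in starved and 359 ± 64.4 CPM in fed livers, a log2 fold change of -2.93 ± 0.26 (95% interval -3.50 to -2.37; edgeR adjusted p = 2.37e-05). Lss and Cyp51 overlap other genes on 3.53% and 3.76% of their exonic bases: the antisense RNA 4930483K19Rik at Lss, with 0.586 ± 0.430 CPM in starved and 1.35 ± 0.403 CPM in fed livers, and Akap9 at Cyp51, with 34.6 ± 5.12 CPM in starved and 35.1 ± 5.42 CPM in fed livers.

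**Figure D2:**
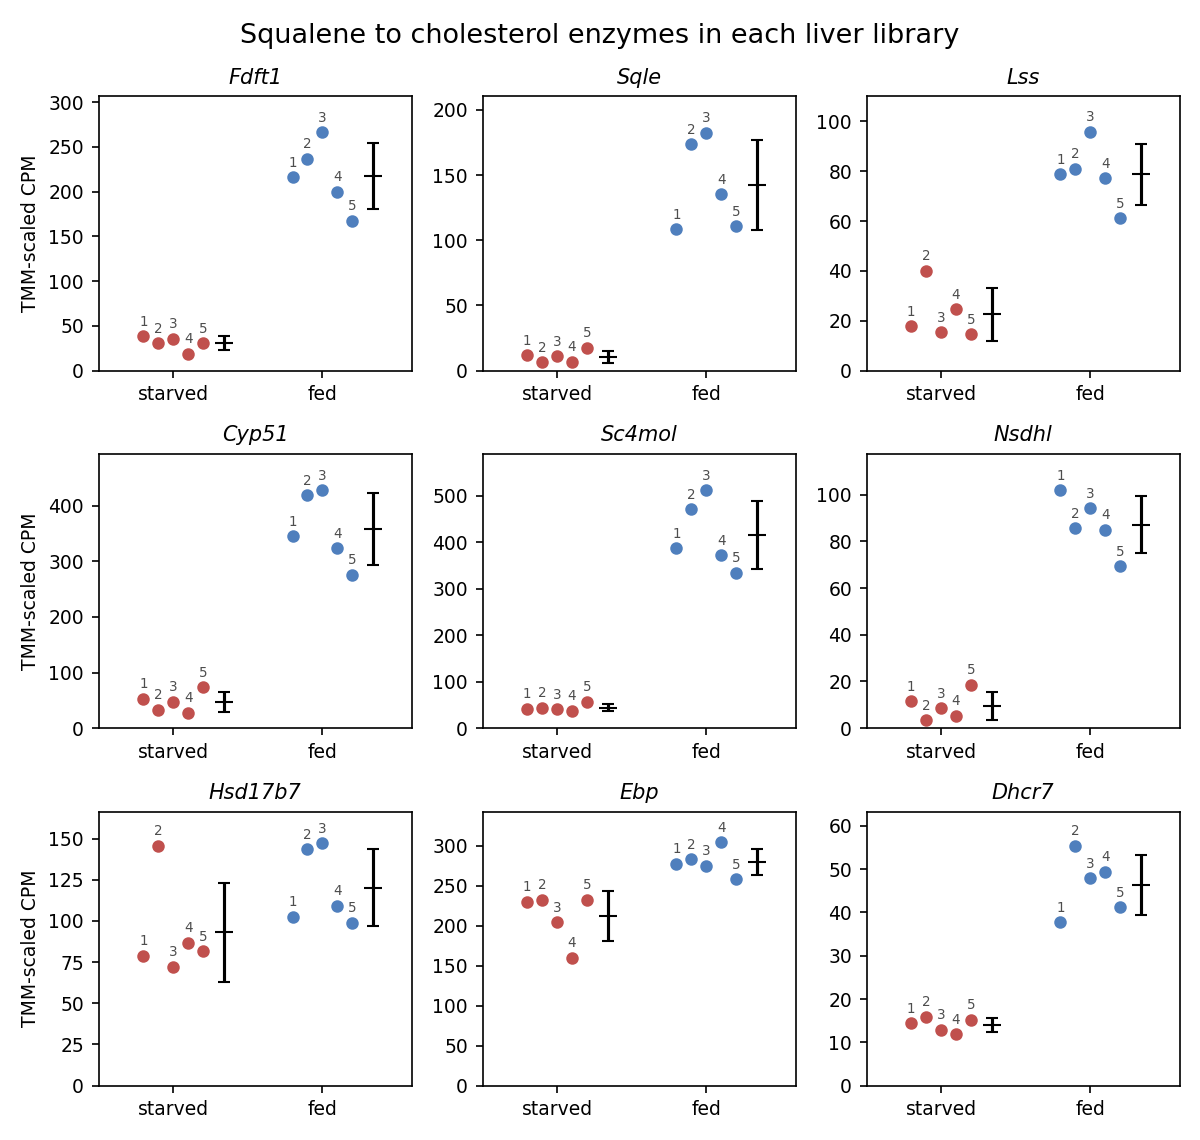
TMM-scaled CPM of each enzyme (vertical axes, linear from 0, 1 panel an enzyme) in starved libraries 1 to 5 (red, left) and fed libraries 1 to 5 (blue, right), with the mean and SD of each group as a bar beside its points. The groups overlap for Hsd17b7, where starved 2 reached 146 CPM, and for no other enzyme.

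Sc4mol, Nsdhl and Hsd17b7 act together to strip the methyl groups from carbon 4: Sc4mol oxidises a methyl group, Nsdhl removes it as carbon dioxide and leaves a ketone, and Hsd17b7 reduces the ketone. Transcripts of the oxidase and of the decarboxylating enzyme fell to 10.6% and 10.9% of their fed mean, and those of the reductase were not called. Sc4mol was at 41.96, 43.9, 40.4, 37.8 and 56.7 CPM in starved livers, against 388, 472, 513, 372 and 335 CPM in fed livers. The starved values lay close together, with starved 5 the highest. Sc4mol averaged 44.2 ± 7.36 CPM in starved and 416 ± 73.7 CPM in fed livers, a log2 fold change of -3.24 ± 0.16 (95% interval -3.59 to -2.88), with the lowest adjusted p of the 9 enzymes (1.04e-06, edgeR). Nsdhl was at 11.4, 3.42, 8.50, 5.38 and 18.7 CPM in starved livers, against 102, 85.7, 94.2, 84.99 and 69.3 CPM in fed livers. Starved 2, at 64 reads, was the lowest and starved 5 the highest, a wide spread for 1 group (coefficient of variation 63.0% in starved, 13.9% in fed livers), yet all starved libraries lay below all fed ones. Nsdhl averaged 9.48 ± 5.97 CPM in starved and 87.2 ± 12.2 CPM in fed livers, a log2 fold change of -3.21 ± 0.37 (95% interval -4.02 to -2.40; edgeR adjusted p = 0.000119).

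Hsd17b7 was at 78.8, 146, 72.1, 86.9 and 81.6 CPM in starved livers, against 103, 144, 147, 109 and 98.9 CPM in fed livers. Starved 2 stood at the level of the highest fed libraries, and the other 4 starved libraries lay below all fed ones. The means were 93.0 ± 29.9 CPM in starved and 120.3 ± 23.2 CPM in fed livers. The log2 fold change was -0.37 ± 0.20 with a 95% interval of -0.81 to 0.06, and the edgeR adjusted p was 0.159. Without starved 2 the log2 fold change of Hsd17b7 was -0.58 ± 0.13 and the gene was called (edgeR adjusted p = 0.00494), so 1 library decided this call. It was also called without starved 2 and 4 together (-0.61 ± 0.14, adjusted p = 0.00448) and with library totals as the only scaling (-0.54 ± 0.17, adjusted p = 0.0233), a scaling that moved the median of all genes by -0.16.

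Ebp, the sterol isomerase that moves a double bond within the ring system, takes the product of these 3 enzymes, and Dhcr7 reduces 7-dehydrocholesterol in the last step of one branch. Ebp was at 230.1, 233, 205, 159.8 and 233 CPM in starved livers, against 277, 283, 275, 304 and 258 CPM in fed livers. The groups did not overlap, although starved 2 and 5, at 233 CPM, came near the lowest fed library, fed 5 at 258 CPM. Ebp averaged 212 ± 31.5 CPM in starved and 279.7 ± 16.7 CPM in fed livers, a log2 fold change of -0.40 ± 0.12 (95% interval -0.66 to -0.14; edgeR adjusted p = 0.0208). Without fed 4 the log2 fold change of Ebp was -0.37 ± 0.13 and it was not called (edgeR adjusted p = 0.0544). Dhcr7 was at 14.5, 15.9, 12.9, 11.8 and 15.2 CPM in starved livers, against 37.7, 55.3, 47.8, 49.4 and 41.1 CPM in fed livers. The starved libraries, starved 2 and 4 included, lay within a narrow band (coefficient of variation 11.9% in starved, 15.1% in fed livers). Dhcr7 averaged 14.1 ± 1.67 CPM in starved and 46.3 ± 6.98 CPM in fed livers, a log2 fold change of -1.72 ± 0.13 (95% interval -2.01 to -1.43; edgeR adjusted p = 1.20e-05).

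The promoters of Sc4mol, Nsdhl, Hsd17b7 and Ebp are printed because these enzymes act in direct succession, and their transcripts ranged from 10.6% of the fed mean (Sc4mol) to 77.3% (Hsd17b7, not called). RefSeq windows ran from 250 bases before to 50 bases after the start site (GRCm38.p6). They were at hand for 7 of the 9 enzymes, and were missing for Fdft1 and Sqle. Dhcr7 had 3 windows, of which windows 1 and 2 overlap, and each of the other enzymes with a window had 1. The windows below read 5′ to 3′ along the gene: Sc4mol chr8:64733529-64733828 (minus strand), Nsdhl chrX:72918271-72918570 (plus), Hsd17b7 chr1:169969156-169969455 (minus) and Ebp chrX:8193463-8193762 (minus). Capitals mark CCAAT on either strand, the letters of the box bound by NF-Y, a factor known to act beside the SREBPs at sterol genes.
Sc4mol: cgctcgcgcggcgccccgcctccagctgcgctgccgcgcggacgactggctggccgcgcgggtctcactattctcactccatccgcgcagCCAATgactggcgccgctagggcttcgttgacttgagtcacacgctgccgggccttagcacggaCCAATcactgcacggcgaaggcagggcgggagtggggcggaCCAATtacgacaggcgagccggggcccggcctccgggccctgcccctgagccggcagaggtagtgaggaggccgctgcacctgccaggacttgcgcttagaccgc
Nsdhl: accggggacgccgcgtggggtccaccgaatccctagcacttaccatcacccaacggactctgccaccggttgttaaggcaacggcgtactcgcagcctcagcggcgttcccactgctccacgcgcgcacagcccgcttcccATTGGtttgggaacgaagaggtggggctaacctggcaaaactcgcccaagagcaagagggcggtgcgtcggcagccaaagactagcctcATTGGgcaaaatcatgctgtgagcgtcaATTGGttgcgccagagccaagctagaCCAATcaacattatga
Hsd17b7: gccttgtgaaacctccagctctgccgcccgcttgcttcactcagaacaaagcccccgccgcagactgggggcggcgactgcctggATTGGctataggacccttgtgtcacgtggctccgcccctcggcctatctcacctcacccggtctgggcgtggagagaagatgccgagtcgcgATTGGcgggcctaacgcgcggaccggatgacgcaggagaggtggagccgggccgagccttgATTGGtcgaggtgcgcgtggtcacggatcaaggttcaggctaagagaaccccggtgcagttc
Ebp: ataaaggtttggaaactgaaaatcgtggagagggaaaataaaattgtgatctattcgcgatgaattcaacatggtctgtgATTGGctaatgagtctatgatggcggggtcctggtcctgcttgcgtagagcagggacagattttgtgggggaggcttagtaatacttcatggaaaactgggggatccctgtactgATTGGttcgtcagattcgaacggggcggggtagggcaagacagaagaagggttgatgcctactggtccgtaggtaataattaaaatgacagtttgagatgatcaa

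CCAAT occurred 3 times in the Sc4mol window, 4 times in Nsdhl, 3 times in Hsd17b7 and 2 times in Ebp, so the windows of Sc4mol and Nsdhl, which fell far, and those of Ebp and the uncalled Hsd17b7 all held it. Over the 9 windows of the 7 enzymes, CCAAT was in 7 (77.8%), against 37.4% of the 32851 mouse windows of the same 300 bases. GGGCGG, the GC box bound by Sp1, was in 8 (88.9%), against 35.7% of all windows, and CACGTG, an E-box, in 2 (22.2%), against 7.15%. TCACNCCAC, the form of the sterol response element searched for, was in 0 of the 9 and in 1.24% of all windows. At so low a share, 0 of 9 windows is the usual outcome, so nothing is read from it. All motifs were searched on both strands, and matches of different motifs shared no base. A match describes letters only, and the absence of one concerns these letters in these windows.

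The fold changes of the 9 enzymes were unequal, and so the make-up of their reads differed between the groups. Ebp took 43.8% ± 1.97 of the reads of the 9 enzymes in starved and 16.3% ± 2.21 in fed livers (SD, n = 5 each). Its share was 42.1% to 46.2% in starved libraries, above all fed libraries (13.4% to 18.4%). Hsd17b7 took 19.3% ± 5.08 in starved and 6.86% ± 0.469 in fed livers, again without overlap. Sc4mol took 9.17% ± 1.05 in starved and 23.7% ± 0.943 in fed livers, and Cyp51 9.61% ± 3.04 in starved and 20.5% ± 0.890 in fed livers. The shares of Fdft1, Sqle and Nsdhl were lower in all starved libraries than in all fed ones as well. Lss took 4.70% ± 2.03 in starved and 4.51% ± 0.261 in fed livers, and Dhcr7 2.92% ± 0.120 in starved and 2.67% ± 0.334 in fed livers, and for both the groups overlapped. These shares describe the same counts as the fold changes and carry no separate test.

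**Figure D3:**
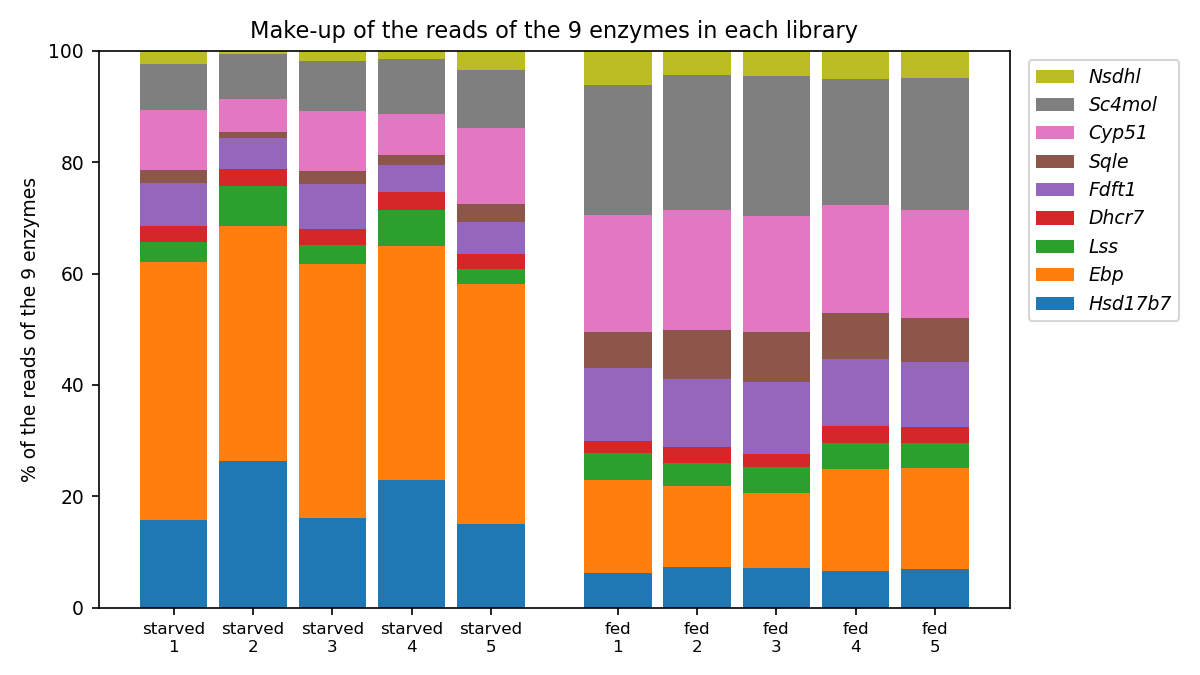
Share of the reads of the 9 enzymes (vertical axis, percent, stacked to 100) that each enzyme took in each starved library (left) and each fed library (right). Ebp and Hsd17b7, at the foot of each bar, averaged 43.8% and 19.3% in starved and 16.3% and 6.86% in fed livers.

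Levels of different enzymes can be compared only per length, here as CPM per kilobase of merged exons. Ebp was the highest in both groups, at 91.8 ± 13.6 CPM per kilobase in starved and 121 ± 7.23 in fed livers. In starved livers it was followed by Hsd17b7 (18.2 ± 5.86), Cyp51 (10.6 ± 4.12), Fdft1 (7.32 ± 1.79), Sc4mol (7.19 ± 1.20), Nsdhl (3.32 ± 2.09), Dhcr7 (2.42 ± 0.287), Lss (2.09 ± 0.976) and Sqle (1.94 ± 0.814 CPM per kilobase). Ebp and Hsd17b7 were the only neighbours in that order whose library ranges did not overlap. In fed livers Ebp was followed by Cyp51 (81.2 ± 14.6), Sc4mol (67.7 ± 12.0), Fdft1 (51.4 ± 8.80), Nsdhl (30.6 ± 4.26), Sqle (25.6 ± 6.22), Hsd17b7 (23.6 ± 4.55), Dhcr7 (7.96 ± 1.20) and Lss (7.30 ± 1.14 CPM per kilobase). There the ranges of neighbours were separate between Ebp and Cyp51, between Fdft1 and Nsdhl, and between Hsd17b7 and Dhcr7. Hsd17b7 thus held place 2 in starved and place 7 in fed livers, and Sqle place 9 in starved and place 6 in fed livers by this length. With the length of the longest coding transcript, an alternative chosen after seeing the data, Sc4mol stood at 21.6 ± 3.60 in starved and 203 ± 36.1 CPM per kilobase in fed livers, above the 160.5 ± 9.58 of Ebp in fed livers, so the order of these 2 in fed livers depends on the length used. By that length Hsd17b7 held place 3 in starved livers (20.2 ± 6.48, below Sc4mol) and place 7 in fed livers, and Sqle place 9 in starved and place 5 in fed livers. The level and place of Fdft1 are uncertain by either length, given its overlap with Ctsb and its matches to other transcripts.

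Whether neighbouring enzymes changed by different amounts was tested on the log2 ratio of their counts within each library, over the 8 pairs of neighbours in the listed order, by an exact two-sided permutation test over all arrangements of 5 against 5 libraries, whose smallest p is 0.00794, with Benjamini-Hochberg adjustment over the 8 ratios. The ratio differed between the groups for 4 of the 8 pairs. Hsd17b7 over Nsdhl averaged 3.48 ± 1.27 in starved and 0.45 ± 0.29 in fed livers (log2, SD, n = 5 each), a difference of 3.03 (exact permutation p = 0.00794, adjusted p = 0.0212), the widest of the 8. Lss over Sqle averaged 1.06 ± 1.15 in starved and -0.83 ± 0.23 in fed livers, a difference of 1.89 with the same p-values. Dhcr7 over Ebp averaged -3.91 ± 0.10 in starved and -2.61 ± 0.19 in fed livers, a difference of -1.30, also with the same p-values. In these 3 pairs the starved libraries all lay on 1 side of the fed ones. Sqle over Fdft1 averaged -1.58 ± 0.52 in starved and -0.63 ± 0.21 in fed livers, a difference of -0.95 with overlapping groups (exact permutation p = 0.0159, adjusted p = 0.0317).

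For the remaining 4 pairs the test did not pass. The difference was -1.11 for Cyp51 over Lss (exact permutation p = 0.0397, adjusted p = 0.0635), -0.23 for Sc4mol over Cyp51 (adjusted p = 0.286), -0.19 for Nsdhl over Sc4mol (adjusted p = 0.771) and -0.01 for Ebp over Hsd17b7 (adjusted p = 0.968). Without starved 2 and 4 the differences were 2.21 for Hsd17b7 over Nsdhl and 1.11 for Lss over Sqle, both still called, -0.78 for Sqle over Fdft1, no longer called (adjusted p = 0.0571), -0.53 for Sc4mol over Cyp51, then called (adjusted p = 0.0357), and -0.34 for Cyp51 over Lss. Without starved 5 Cyp51 over Lss was called (-1.42, adjusted p = 0.0127, exact permutation test).

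**Figure D4:**
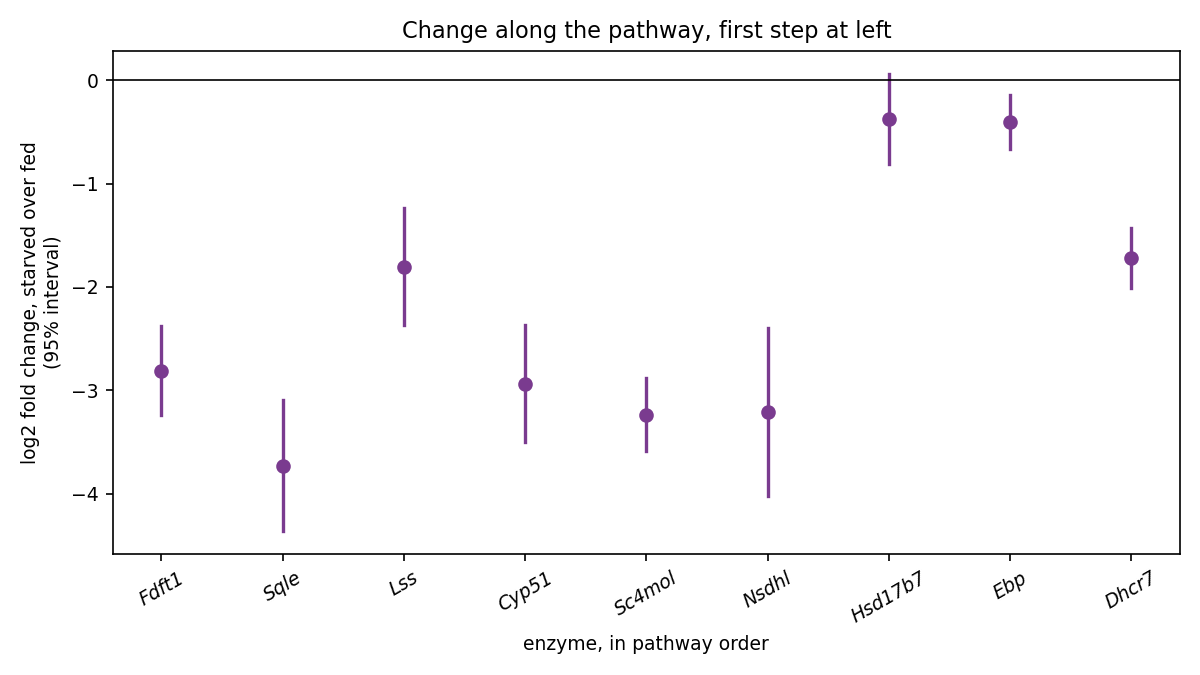
The log2 fold change of starved over fed livers with its 95% interval (vertical axis) for the 9 squalene to cholesterol enzymes, in pathway order (horizontal axis). The interval of Hsd17b7 reaches 0.06, and those of the other 8 enzymes lie below 0.

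The starved libraries did not hold the same order from enzyme to enzyme. On the log2(CPM + 0.5) scale and relative to the fed mean, starved 2 and 4 were the 2 lowest for Sqle (-4.31 and -4.25), Cyp51 (-3.41 and -3.66) and Nsdhl (-4.47 and -3.89). The same 2 libraries were the 2 highest for Lss (-0.95 and -1.64) and Hsd17b7 (0.30 and -0.45). Starved 5 was the highest for Sqle (-2.94), Cyp51 (-2.26), Sc4mol (-2.85) and Nsdhl (-2.18), and the lowest for Lss (-2.37). For Sc4mol (-3.42 to -2.85), Ebp (-0.80 to -0.26) and Dhcr7 (-1.91 to -1.50), in contrast, the 5 starved libraries stayed near one another.

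**Figure D5:**
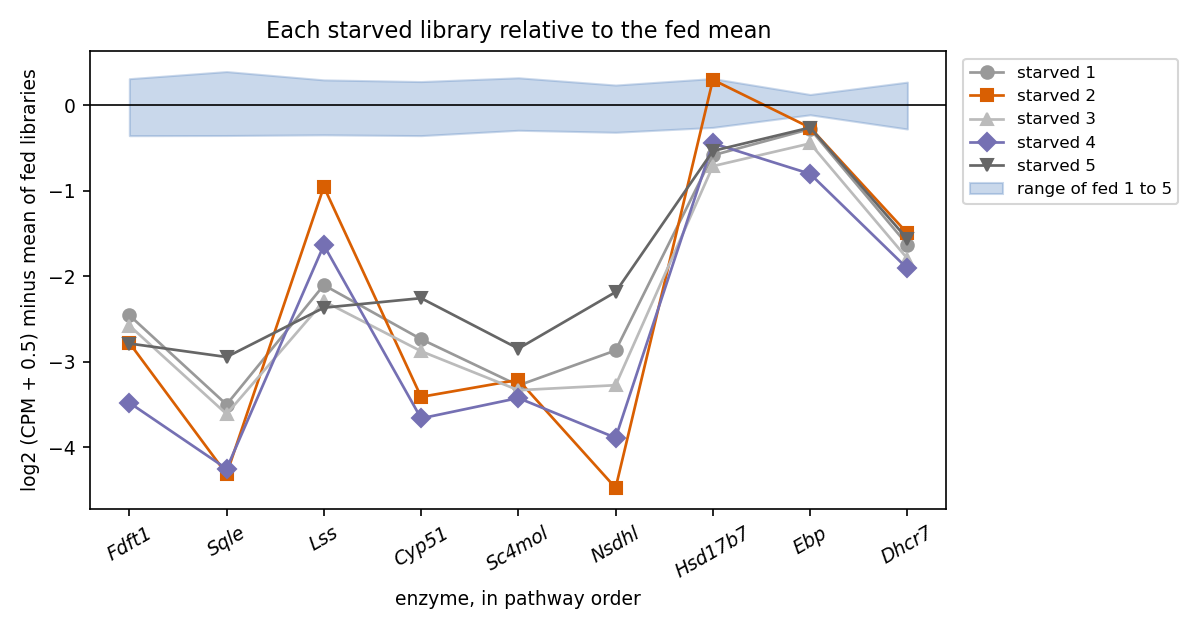
Log2(CPM + 0.5) minus the mean of the fed libraries (vertical axis) for each of the 9 enzymes in pathway order (horizontal axis), with 1 line a starved library and the range of fed libraries 1 to 5 as a blue band. Starved 2 (orange) runs from -4.31 at Sqle to -0.95 at Lss and from -4.47 at Nsdhl to 0.30 at Hsd17b7.

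The other enzymes of the sterol steps were counted from a list of 5, of which Faxdc2 was not analysed here. Of the other 4, 3 fell and none rose (median log2 fold change -1.17), beside 20.0% lower and 18.6% higher over all tested genes. Without starved 2 and 4 all 4 fell. Sc5d, the desaturase just before Dhcr7, fell to 96.3 ± 32.4 CPM in starved livers, against 540 ± 36.9 CPM in fed livers (log2 fold change -2.49 ± 0.23, edgeR adjusted p = 2.81e-05). Tm7sf2 and Lbr, named after their values were seen, are both known as reductases of the sterol made by Cyp51. Tm7sf2 fell to 91.8 ± 32.6 CPM in starved livers, against 200.7 ± 15.5 CPM in fed livers (log2 fold change -1.13 ± 0.20, edgeR adjusted p = 0.00154). Lbr was at 19.8 ± 8.41 CPM in starved and 22.2 ± 2.60 CPM in fed livers and was not called (-0.17 ± 0.23, edgeR adjusted p = 0.588). Without starved 2, where it was highest, Lbr was called (-0.44 ± 0.13, edgeR adjusted p = 0.0168).

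All 8 genes of the mevalonate arm fell, beside 20.0% lower over all tested genes. Their median log2 fold change was -2.87, with a range of -4.21 to -2.19. Fdps, which makes the farnesyl diphosphate that Fdft1 uses, fell to 26.8 ± 12.0 CPM in starved livers, against 496 ± 71.8 CPM in fed livers (log2 fold change -4.21 ± 0.31, edgeR adjusted p = 1.03e-05). Mvd, mevalonate diphosphate decarboxylase, fell to 2.94 ± 1.36 CPM in starved livers, against 48.8 ± 9.90 CPM in fed livers (-4.06 ± 0.31, edgeR adjusted p = 1.27e-05).

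Of 13 genes of SREBP processing and sterol uptake, 6 fell and 2 rose (median log2 fold change -0.29), beside 20.0% lower and 18.6% higher over all tested genes. Without starved 2 and 4 the counts were 8 and 2, with Scap (log2 fold change -0.57, edgeR adjusted p = 0.00957) and Mbtps1 (-0.37, adjusted p = 0.0118) added among those that fell. Srebf2, whose product is the SREBP best known for cholesterol genes, fell to 14.8 ± 3.86 CPM in starved livers, against 26.6 ± 5.06 CPM in fed livers (log2 fold change -0.85 ± 0.18, edgeR adjusted p = 0.00417). Srebf1, whose product is best known for fatty acid genes, fell to 30.4 ± 20.2 CPM in starved livers, against 323 ± 20.0 CPM in fed livers (-3.41 ± 0.34, edgeR adjusted p = 5.14e-05). The 2 Insig genes moved in opposite directions. Insig1 fell to 156 ± 88.1 CPM in starved livers, against 838 ± 164 CPM in fed livers (-2.43 ± 0.33, edgeR adjusted p = 0.000330). Insig2 rose to 1277 ± 683 CPM in starved livers, against 110 ± 35.2 CPM in fed livers (3.53 ± 0.35, edgeR adjusted p = 5.13e-05). Both directions held under each scaling and with each library left out. Mylip, a ubiquitin ligase, rose to 25.5 ± 7.81 CPM in starved livers, against 13.4 ± 1.05 CPM in fed livers (0.93 ± 0.17, edgeR adjusted p = 0.00184).

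The genes whose pattern over the 10 libraries came nearest to the mean pattern of the 9 enzymes were found among 8974 genes with a mean of at least 5 CPM, by the root mean square distance of log2(CPM + 0.5) values, each gene set relative to its own fed mean. The nearest 8 were Rdh11 (0.148), Abca8a (0.194), Gbp6 (0.243), Pstpip2 (0.252), Uba7 (0.256), Pmvk (0.260), Cmah (0.262) and Mvk (0.263). Pmvk and Mvk are kinases of the mevalonate arm, and Rdh11 is a retinal reductase. Gbp6 belongs to a family of near-identical copies, so its counts are uncertain. Rdh11 was at 19.3 ± 2.79 CPM in starved and 90.2 ± 8.66 CPM in fed livers, a log2 fold change of -2.22 ± 0.12. The log2 fold changes of the other 7 ran from -2.64 (Gbp6) to -2.10 (Cmah). The enzymes themselves lay at distances from 0.428 (Fdft1) to 1.36 (Hsd17b7) from their own mean pattern. The 8 genes were picked as the nearest of 8974, and the 9 enzymes were not picked by distance. The smaller distances and similar fold changes of the 8 genes follow from that choice.

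Markers of liver cell types were summed in each library to check the tissue. Counts of markers that fell or rose stand beside 20.0% lower and 18.6% higher over all tested genes. The 5 hepatocyte markers, among them Alb, summed to 101944 to 150532 CPM in starved and 83620 to 122523 CPM in fed livers, and 2 of them fell and 1 rose. The 5 Kupffer cell markers summed to 113 to 259 CPM in starved and 307 to 506 CPM in fed livers, and 4 fell. The 5 endothelial markers summed to 161 to 208 CPM in starved and 191 to 229 CPM in fed livers, with 3 that fell and 1 that rose, and the 4 stellate cell markers to 431 to 642 CPM in starved and 418 to 487 CPM in fed livers, with 1 that rose. The 4 cholangiocyte markers summed to 14.3 to 39.0 CPM in starved and 45.3 to 55.7 CPM in fed livers. Most of that sum was Spp1, the 1 that fell (24.2 ± 11.1 CPM in starved and 47.2 ± 5.06 CPM in fed livers), and Krt19, Krt7 and Epcam, each at 1.63 CPM or less on average, were not called. Of the 3 blood cell markers, Hbb-b1 and Hba-a1 were at 0 reads in all 10 libraries. Up to 3 reads per library cannot be told from none, and reads with several alignments were not counted. These counts therefore do not show that the RNA of either gene was absent. Alas2 fell, with 8.34 to 25.1 CPM in starved and 26.7 to 44.9 CPM in fed livers. The 3 lymphocyte markers summed to 7.58 to 12.4 CPM in starved and 16.1 to 25.5 CPM in fed livers, and both of those tested fell. The lower sums of Kupffer and lymphocyte markers and the lower levels of Spp1 and Alas2 moved with the 8 enzymes that fell, and their part in the result was not tested.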

How the data were processed

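Liver RNA of 5 starved and 5 fed mice was sequenced, with 1 library a mouse, grouped by the sample labels. Per the labels' protocols, libraries were made with a TruSeq stranded total RNA kit. Build mm10, edgeR 3.6.4, HTSeq, Bowtie2 2.0.0, TopHat2 2.0.0 and CASAVA 1.8.2 were used, per the submitters' processing notes. Not given in the sources used here are the HTSeq version, the annotation and the strand setting, so genes that overlap on opposite strands are uncertain. The authors deposited raw counts (whole reads for each gene symbol, with no scaling) and tallies of unassigned reads. These tallies name no gene and were left out: reads with several alignments were 42.9% ± 3.68 in starved and 47.1% ± 0.780 in fed libraries, reads in no gene 20.1% ± 2.99 in starved and 18.1% ± 2.46 in fed libraries, and ambiguous reads 0.625% ± 0.115 in starved and 0.489% ± 0.0340 in fed libraries (SD, n = 5 each). Reads shared by near-identical genes were thus not counted.

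From these counts, levels, folds and tests were computed in R 4.3.3. Genes were filtered with filterByExpr of edgeR 4.0.16, scaled by TMM and tested with edgeR's quasi-likelihood test of starved against fed with no covariate, called at an adjusted p under 0.05. Log2 ratios of neighbouring enzymes had 0.5 added to both counts and were tested by enumerating all arrangements of the libraries. Alternatives were other scalings, filters and thresholds, DESeq2 1.42.0, limma 3.58.1 (voom), edgeR's likelihood ratio test, the replicate number as a block, and leaving out libraries. The scripts were tested on simulated counts. Exon lengths and overlaps came from GENCODE M21, near-identical transcripts (at least 95% identity over 100 bp) from BLAST 2.17.0, and promoters from RefSeq (GRCm38.p6). Besides the 9 enzymes, named genes were in each other list the called genes that fell or rose furthest (at most 2 each way, and 1 CPM or more in the group where they were higher), plus genes named whatever their values, among them Srebf2 and Insig1, and the 8 nearest genes. Some genes that this rule selects are not reported here. The enzymes and lists were chosen with earlier results of these data known.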

Additional observations from a re-analysis of the deposited data

Results flagged for a closer look

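The starved and the fed libraries were searched, for each of the 9 enzymes, their sum, the 8 ratios, the genes selected by the naming rule, and Tm7sf2, Lbr and Abcg1, for a lowest or highest library that lay far from the other 4, relative to the range of the group. Marker genes were not searched. Of 88 groups tested 7 had one, and chance alone gives about 1 in 20. Starved 2 stood apart 4 times, each time above the other starved libraries. It was at 146 CPM for Hsd17b7 (the others at 72.1 to 86.9), at 66.1 CPM for Srebf1 (the others at 16.9 to 23.6), at 39.3 CPM for Mylip (the others at 20.6 to 23.6) and at 16.8 CPM for Abcg1 (the others at 7.70 to 10.1). Abcg1, like Tm7sf2 and Lbr, was named after its values were seen, so its flag was not found by the search alone. Starved 4 was at 2472 CPM for Insig2, with the others at 851 to 1209. Fed 1 was low for the log2 ratio of Sqle over Fdft1, at -0.997 with the other fed libraries at -0.59 to -0.45, and high for Pstpip2, at 16.1 CPM with the others at 13.8 to 14.2. The causes were not tested.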

How the results depend on the processing

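The count of 8 enzymes lower held between 7 and 9 over 21 alternatives and that of enzymes higher stayed at 0. The count lower was 9 with library totals alone, without starved 2 and without starved 2 and 4, and 7 at an adjusted p under 0.01 and without fed 4. Over all genes, 4934 were called, 2555 lower and 2379 higher. At an adjusted p under 0.01, a stricter rule by construction, 2798 were called, 1526 lower and 1272 higher. With library totals alone the split was 3489 lower and 1490 higher, with the median of all genes moved by -0.16. Leaving out 1 library each gave 3981 to 5613 genes called (2043 to 2847 lower, 1868 to 2766 higher), 7 to 9 enzymes lower and 4 to 5 ratios called. The labels mention pairs of mice but tie no pair to a replicate number. Deviations of starved and fed libraries of the same number correlated between -0.06 and 0.23, and not every library correlated best with its own number, so the main comparison is unpaired. With the replicate number as a block, 8 enzymes were lower and 0 higher, and 4410 genes were called (2381 lower, 2029 higher), while all 4 ratio calls were lost and 0 of the 8 ratios were called, since sign flips of 5 pairs cannot give a p under 0.0625. Hsd17b7, Ebp, Lbr, Soat1, Abcg1 and 3 of the ratios changed calls in other settings, given beside their values. Of genes not called in the main fit, Mbtps1 was called in 7 of 21 settings, Mbtps2 in 3, Scap in 2 and Lcat in 1. Mbtps1 and Scap were then lower, and Mbtps2 and Lcat higher. Nsdhl, with 64 reads in starved 2, had the widest standard error of the 9 enzymes (0.37).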

Other observations

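Genes that esterify, export or exchange cholesterol were counted from a list of 8. Of these, 2 fell and 1 rose, beside 20.0% lower and 18.6% higher over all tested genes, so the shares of this list lay near those of all genes. The median log2 fold change was 0.10, against 0.00346 for all tested genes. Soat2, the sterol acyltransferase of hepatocytes, fell to 22.2 ± 3.53 CPM in starved livers, against 36.1 ± 4.80 CPM in fed livers (SD, n = 5 each; log2 fold change -0.70 ± 0.13, edgeR adjusted p = 0.00208). Soat1, the related acyltransferase of other cells, fell to 4.40 ± 1.37 CPM in starved livers, against 6.91 ± 1.05 CPM in fed livers (-0.65 ± 0.21, edgeR adjusted p = 0.0298). That call was lost without starved 4 (adjusted p = 0.0812), fed 4 (0.0672) or fed 5 (0.0741), and also without starved 2 and 4 (log2 fold change -0.37, adjusted p = 0.0848). Scarb1, the HDL receptor, rose to 188 ± 42.4 CPM in starved livers, against 113 ± 20.6 CPM in fed livers (0.73 ± 0.17, edgeR adjusted p = 0.00668). Abcg1, a sterol exporter named after its values were seen, was at 10.6 ± 3.57 CPM in starved and 13.7 ± 0.659 CPM in fed livers and was not called (-0.37 ± 0.19, edgeR adjusted p = 0.133). It was called without starved 2 (-0.58, adjusted p = 0.00100), without starved 2 and 4 (-0.58, adjusted p = 0.00133) and with library totals as the only scaling (-0.55, adjusted p = 0.0190). Lcat, Abca1, Abcg5 and Abcg8 were not called, and Lcat was called only by DESeq2 (adjusted p = 0.0223).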
